A study of Mus musculus with 4 samples.

Results

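The genes described here encode the proteins of the cytosolic ribosome. They were taken by name from the deposited gene table: a row was a member when its gene name was Rpl, Rps or Rplp followed by digits and at most 1 further letter, with Rps27l left out. This gave 91 of the 39179 rows, 58 named for the large subunit and 33 for the small subunit. The 91 rows carried 77 different names, because 13 names stood on more than 1 row. For 77 rows the annotation gave the same name as the table, and these are called the rows at the gene's own locus. The other 14 rows stand under a member's name in the table: 13 are copies at another locus, and the annotation does not hold the remaining row.

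Messenger RNA was sequenced from mouse embryonic fibroblasts of the BALB/c strain, connective tissue cells grown from embryos, in 2 groups of 2 libraries. The SON group had been infected with a lentivirus for Stella, Oct4 and Nanos2 (the first is encoded by Dppa3, the second by Pou5f1), factors known from germ cells and early embryos, and the GFP control group with a lentivirus for green fluorescent protein. Cells of both groups were infected at passage 2, went through 4 days of selection in puromycin (2 μg/ml) that began 72 h later, and were then kept for 21 days without the drug. The comparison of SON with GFP control therefore asks what differed in fibroblasts that carried the 3 factors, and the sources used here give neither the promoter that drove them nor whether the libraries of a group came from separate cultures.

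A ribosome is built from ribosomal RNA and a full set of proteins, which are needed in about equal numbers and assemble with the RNA in the nucleolus. The large subunit joins amino acids and holds the tunnel through which the new chain leaves, while the small subunit reads the messenger RNA. In growing fibroblasts the messenger RNAs of these proteins are among the most abundant of the cell, and most of them start with a run of pyrimidines through which their translation is controlled.

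The reads in genes came to between 14680865 and 37097571 per library, with the 2 SON libraries the shallower ones, and a level below is a normalized read count (reads divided by 1 size factor per library). All 3 delivered genes were called higher in SON by limma, with adjusted p between 0.0311 and 0.0326, which checks the group labels. The fibroblast markers were at high levels in all 4 libraries, and none of the 9 was at 0. Their summed level was 788842 and 437501 in GFP control I and II, against 454747 and 390552 in SON I and II. GFP control I was thus the highest library, and GFP control II lay between the SON libraries. Both SON libraries lay below both GFP control libraries for 5 of the 9, where 23.7% of all tested genes did. They lay above both for 3 of the 9, where 22.2% did. In some other lists the 2 SON libraries stood apart from each other. All 8 genes of a cell division list were higher in SON I, and they summed to 8041 and 10321 in the GFP control libraries, with 17178 for SON I and 5061 for SON II. All 4 smooth muscle genes were also higher in SON I, with sums of 122740, 137452, 363476 and 109431 in the same order. The 7 macrophage genes were lower in SON I, with sums of 1392, 1452, 461 and 1247, and Adgre1 was at 0 reads in SON I only. The 4 endothelial genes summed to 76.8 and 118 in the GFP control, against 203 and 203 in SON. The 5 epithelial genes summed to 165 and 288, against 436 in SON I and 273 in SON II, and no gene of these lists was at 0. Only 2 of the 5 epithelial genes passed the filter on low counts, with log2 differences of -0.15 and 1.20. The authors' deposited table called 3 fibroblast markers lower in SON, and 1 smooth muscle and 1 epithelial gene higher. Over all genes with an adjusted p it called 4.07%. Transcripts of the mitochondrial genome, 37 rows, held no reads in any library, so they gave no check of RNA quality. Why these rows were empty was not tested.

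The levels of most ribosomal protein genes lay close together in SON and GFP control. Of the 91 rows, 85 passed the filter on low counts, 52 of the large and 33 of the small subunit. None of the 85 was called by limma at an adjusted p under 0.05, where 0.0523% of the 15283 tested genes were called, and the smallest adjusted p among them was 0.274. The authors' deposited table, in which 4.07% of the genes with an adjusted p were called, called none of them either. DESeq2 on the recovered reads (3.88% of genes called) and edgeR (0.0523%) also called 0 of the 85. At an unadjusted p under 0.05, limma gave 1 member higher in SON, Rpl35, against 5.99% of all genes, and 1 lower, Rpl39l, against 6.57% of all genes. In bulk RNA a lower level in each cell and fewer cells of a type cannot be told apart.

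The size of the differences was narrow. The log2 differences, SON minus GFP control on the scale log2(normalized count + 1), ran from -0.89 to 0.46 over the 85 tested genes. They lay within 0.25 of 0 for 70 of the 85, or 82.4%, where 51.0% of all tested genes did, and 62.1% of the tested genes with a mean level of at least 1000. Of the 91 members, 79 reached that mean level. The median size of the log2 difference, without its sign, was 0.12 for the tested members, 0.24 for all tested genes and 0.18 for genes with a mean of at least 1000.

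Most differences were small and positive. The log2 difference was above 0 for 63 of the 85 tested members, where 49.3% of all tested genes were above 0, and its median was 0.10, against -0.0063 over all tested genes. Both SON libraries lay above both GFP control libraries for 31 of the 85, where 22.2% of all tested genes did so. Both lay below for 3 of the 85, where 23.7% of all tested genes did: Rpl39l, and copies of Rpl10 and Rpl41 described further on. Leaving out a library eases the condition, so these counts could only stay or rise. Without some of the libraries they rose by more than 1.5 times. Without SON II, 72 of the 85 had the SON library above both GFP control libraries, and without SON I 35 did. The count below was 34 without SON I and 8 without GFP control I. The shares of all tested genes were not counted with a library left out.

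**Figure D1:**
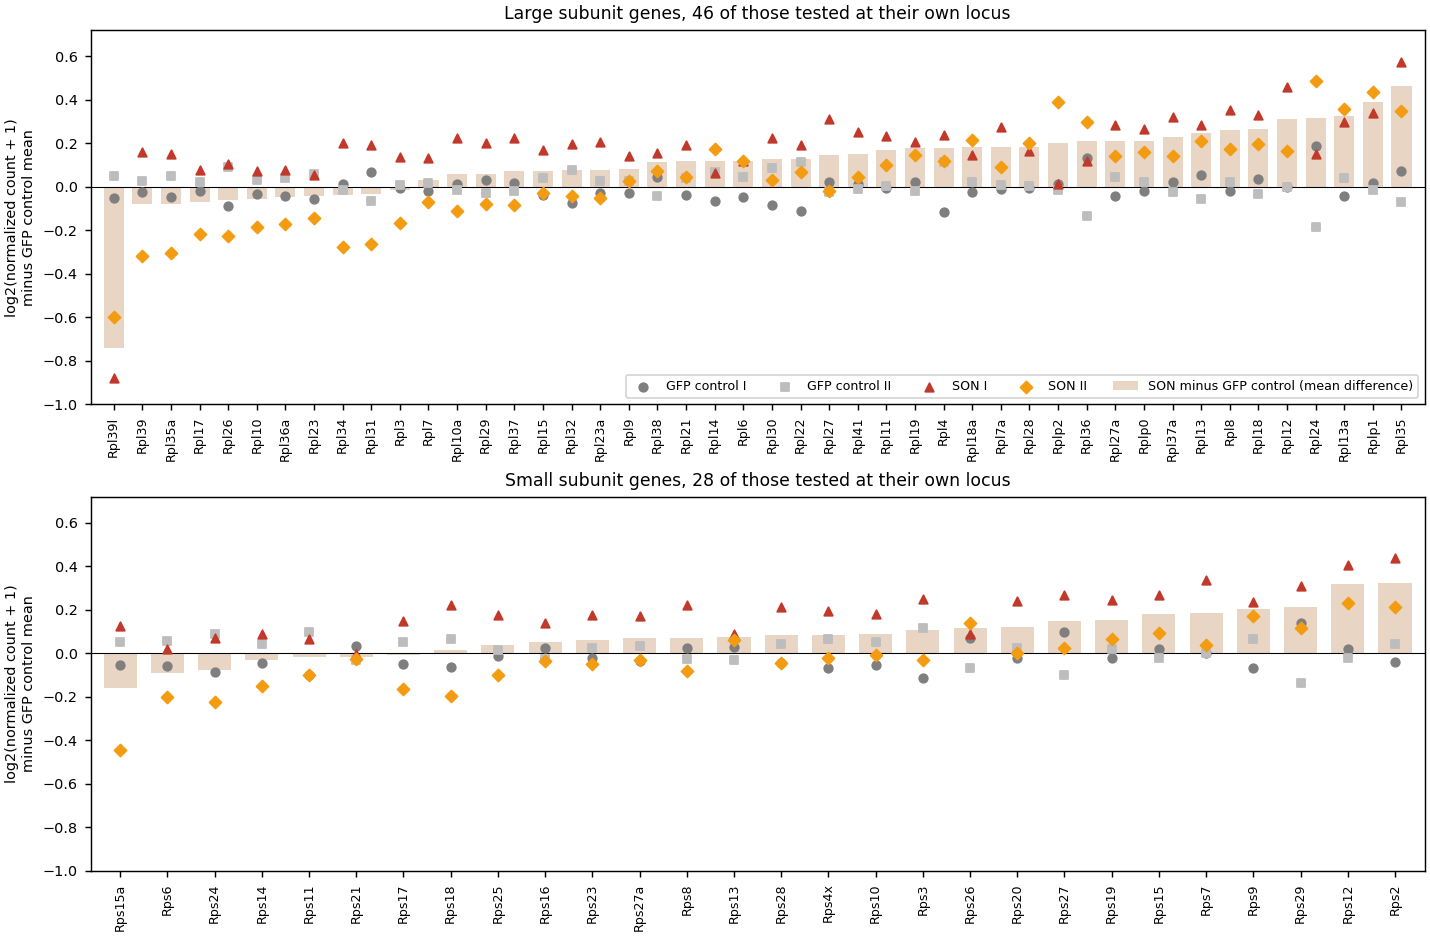
Tested genes at their own locus (74 of 75), large subunit above and small subunit below, ordered by the mean difference (bars). Each point is 1 library as log2(normalized count + 1) minus the mean of the GFP control libraries. SON I lies above SON II for 64 of the 74 genes shown, and Rpl39l stands alone at the low end.

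The spread between the SON libraries was wider than the difference between the groups. SON I was above SON II for 74 of the 85 tested members, or 87.1%, where 52.5% of all tested genes were. The median log2 difference of SON I minus SON II was 0.20 over the tested members and 0.027 over all tested genes, and that of GFP control I minus II was -0.047 over the members. SON I lay above both GFP control libraries for 72 of the 85 and below both for 3. SON II lay above both for 35 and below both for 34. The share of all tested genes was not counted for a single SON library, so these counts stand without a background. The cell division genes had the same order of the SON libraries, with a median of 1.85 for SON I minus SON II. Top2a, the topoisomerase of dividing cells, had 2400 and 3013 normalized counts in the GFP control libraries, but 5323 in SON I and only 1334 in SON II. The part of cell division, or of the smooth muscle and macrophage genes, in the ribosomal protein levels was not tested.

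Large and small subunit genes had similar medians. The median log2 difference was 0.12 for the 52 tested large subunit members and 0.083 for the 33 small subunit members. It was 0.12 for the 46 tested large subunit genes at their own locus and 0.083 for the 29 small subunit ones. Both SON libraries were above both GFP control libraries for 20 of 52 large and 11 of 33 small subunit members, where 22.2% of all tested genes were, and below both for 3 large and 0 small subunit members, where 23.7% were. Without SON I the medians were 0.029 and -0.027, and without SON II they were both 0.19. SON I was above SON II for 42 of 52 large and 32 of 33 small subunit members.

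The balance of the subunits within a library also held to a narrow range. The mean of log2(normalized count + 1) over the large subunit members minus that over the small subunit members was -0.33 and -0.34 in GFP control I and II, and -0.38 and -0.32 in SON I and II. Over all tested members the SON libraries lay on both sides of the GFP control libraries. The group values were -0.33 ± 0.01 in the GFP control and -0.35 ± 0.04 in SON (SD, n = 2), a difference of -0.014. The sign of this difference changed to 0.019 over the own-locus rows, 0.024 over rows with a mean level of at least 1000 and 0.017 without SON I. The groups also overlapped over the own-locus rows. Over rows with a mean level of at least 1000 both SON libraries lay above both GFP control libraries. The values there were -0.365 and -0.360 in GFP control I and II, against -0.352 and -0.324 in SON I and II. Large subunit members took 58.5% and 58.3% of the reads of all members in the GFP control, against 58.4% and 59.7% in SON. No test was made on these values, because an exact permutation test of 2 libraries against 2 cannot give a two-sided p below 0.333.

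Reads of the 91 rows made up 2.95% and 3.39% of all reads in genes in GFP control I and II, and 3.54% and 3.42% in SON I and II. Both SON shares were above both GFP control shares, with 3.17% ± 0.31 in the GFP control and 3.48% ± 0.09 in SON (SD, n = 2). SON II exceeded GFP control II by far less than the GFP control libraries differed from each other. The share does not use the size factors, but it does depend on the genes that take the most reads. When the 100 most abundant other genes were left out of the total it was 3.85% and 4.27% in the GFP control, against 4.55% and 4.23% in SON, and then SON II lay between the GFP control libraries.

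The stalk of the large subunit, which draws the elongation factors to the ribosome, has 3 proteins, and all 3 genes had positive differences. Rplp1 (ENSMUSG00000007892, GRCm38 chr9:61913284-61914542, minus strand) had 9589 and 9386 normalized counts in GFP control I and II and 12014 and 12831 in SON I and II. Here the groups did not overlap and SON II was the higher of the SON libraries, unlike most members. The log2 difference was 0.39 ± 0.15 (the error of a log2 difference is its SE throughout, limma adjusted p = 0.398). Rplp0, which anchors the stalk to the ribosomal RNA, had 24602, 25324, 29998 and 27898 in the same order, again without overlap (log2 difference 0.21 ± 0.19, limma adjusted p = 0.697). Rplp2, which forms dimers with Rplp1, had 4341, 4259, 4332 and 5639. For Rplp2 only SON II was high, and SON I lay between the GFP control libraries.

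Rpl11 and Rpl5 bind the ribosomal 5S RNA, and outside the ribosome both can bind Mdm2, the inhibitor of p53. Rpl11 had 7180 and 7229 normalized counts in the GFP control, against 8484 and 7721 in SON, a log2 difference of 0.17 ± 0.15 (limma adjusted p = 0.694) that came to 0.10 without SON I. The row of Rpl5 carries the name Gm14217 in the table, so the name rule does not take it. It had 9824, 10232, 10672 and 9779 in GFP control I and II and SON I and II, with the SON libraries on either side of the GFP control. Mdm2 itself spread from 5849 to 10848 in the GFP control and from 7320 to 19296 in SON.

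Around the exit of the peptide tunnel, 3 of 7 genes had a positive difference and the median was -0.035. Within that group Rpl35 (ENSMUSG00000062997, GRCm38 chr2:39001580-39005624, minus strand) had the highest difference of all tested members. It had 1388 and 1257 normalized counts in GFP control I and II and 1969 and 1680 in SON I and II, so the groups did not overlap. The log2 difference was 0.46 ± 0.16 (SE, limma adjusted p = 0.352). The authors' deposited table gave it an adjusted p of 0.435. Rpl35 shares 66.2% of its exon bases with Wdr38 on the opposite strand, which had at most 5.88 normalized counts in any library, and it has a near-identical copy that is taken up below. Rpl39, Rpl31, Rpl26 and Rpl17 had log2 differences between -0.081 and -0.035. In each of these the SON libraries lay on both sides of the GFP control, with SON I high and SON II low.

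At the site where messenger RNA enters the small subunit and is decoded, all 4 genes had positive differences, with a median of 0.14. Rps2, which lines the entry of the channel, had 10348 and 10974 normalized counts in the GFP control, against 14430 and 12355 in SON (log2 difference 0.33 ± 0.17, limma adjusted p = 0.503). Rps3, also at the entry, had 23931 and 28100 in the GFP control, against 30863 and 25354 in SON, so the groups overlapped. Rps15, near the decoding site, had 10539, 10257, 12506 and 11086, with both SON libraries the higher ones.

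Rps26, at the messenger RNA exit, was higher in both SON libraries by a small margin, with 4960, 4505, 5033 and 5203.

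Of 9 genes whose loss of 1 copy is known from Diamond-Blackfan anaemia, a failure of red cell production, 6 had a positive difference and all 9 lay within 0.25 of 0. Rps19, the gene most often mutated in it, had 7707 and 7929 normalized counts in the GFP control, against 9257 and 8184 in SON (log2 difference 0.15 ± 0.15, limma adjusted p = 0.732). The difference was 0.066 without SON I and 0.24 without SON II. Rps24 had 13258, 14959, 14784 and 12060, so SON I fell between the GFP control libraries and SON II below them.

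Further small subunit genes showed the same split of the SON libraries. Rps6, the protein that S6 kinase phosphorylates, had 9788 and 10603 normalized counts in the GFP control, 10332 in SON I and 8862 in SON II (log2 difference -0.09 ± 0.17, limma adjusted p = 0.869). Rps27a, which is made as a fusion with ubiquitin, had 8184, 8576, 9422 and 8206. Rps15a had 10530 and 11344 in the GFP control, 11904 in SON I and 8019 in SON II, and its log2 difference of -0.16 was the lowest of the small subunit genes at their own locus. In all 3 the SON libraries enclosed at least 1 of the GFP control libraries. By contrast Rps12 was higher in both SON libraries, with 9324, 9059, 12174 and 10795 (log2 difference 0.32 ± 0.16, limma adjusted p = 0.485).

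The most abundant members were as close between groups as the rest. Rpl4, which reaches into the exit tunnel, had the highest mean level, with 33609 and 39471 normalized counts in the GFP control, against 42954 and 39509 in SON. GFP control II and SON II were nearly equal in Rpl4, while the GFP control libraries differed by far more. Rpl13a, which also takes part in a complex that represses translation of inflammatory messenger RNAs, had 17690, 18766, 22365 and 23365 (log2 difference 0.33 ± 0.17, limma adjusted p = 0.513). For Rpl13a the groups did not overlap and SON II was the highest library. Rpl23 (21232, 23019, 22970 and 20001), Rpl7 (18235, 18698, 20236 and 17591), Rps20 (19473, 20080, 23356 and 19769) and Rps4x (18118, 19846, 21670 and 18697) overlapped between the groups, with SON II below GFP control II in each.

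Among genes known for use in few tissues, Rpl39l was read well above the floor and was lower in SON. It is a copy of Rpl39 that is known best from male germ cells, and Rpl39 lines the peptide exit tunnel. Rpl39l (ENSMUSG00000039209, GRCm38 chr16:10170226-10174911, plus strand) had 482 and 518 normalized counts in GFP control I and II and 271 and 329 in SON I and II, from 577, 871, 199 and 224 reads. The groups did not overlap, and SON I, which was high for most members, was the lowest library here. The log2 difference was -0.74 ± 0.19 (limma p = 0.0114, adjusted p = 0.274), and the authors' deposited table gave an adjusted p of 0.133. Leaving out each library in turn gave log2 differences from -0.88 to -0.60. Rpl39 (ENSMUSG00000079641, GRCm38 chrX:37082520-37085402, minus strand) had 7396, 7667, 8402 and 6031, so SON I was its highest library and SON II its lowest. Rpl39l was 6.12% and 6.33% of the sum of both genes in the GFP control, against 3.13% and 5.17% in SON. The coding sequences of the pair are shown because they bear on whether a read from within them can be placed. The principal transcript was 612 bases for Rpl39 and a median of 677.5 for Rpl39l, and the parts outside the coding sequence were not compared. Both coding sequences are 153 bases without the stop codon, from the GENCODE M21 annotation of GRCm38. Capitals mark the 23 positions at which they differ.
Rpl39: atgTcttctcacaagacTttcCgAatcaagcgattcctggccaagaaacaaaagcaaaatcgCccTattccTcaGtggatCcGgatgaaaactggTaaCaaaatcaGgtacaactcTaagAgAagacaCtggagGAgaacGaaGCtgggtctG
Rpl39l: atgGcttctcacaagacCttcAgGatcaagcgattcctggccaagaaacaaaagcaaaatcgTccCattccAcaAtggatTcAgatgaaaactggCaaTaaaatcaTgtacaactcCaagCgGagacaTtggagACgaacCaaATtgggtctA
Of the 23 differing positions 16 were the last base of a codon, and 21 of the 51 codons differed. The longest stretch without a difference was 38 bases.

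The other tissue-restricted copies were at the floor. Rpl3l, the form of Rpl3 in heart and skeletal muscle, had 1 and 3 reads in GFP control I and II and 2 and 3 reads in SON I and II. Rpl10l, a copy of Rpl10 known from testis, had a single read, in SON II. A count of 0 allows up to 3 reads, or 2.51, 1.78, 4.09 and 4.41 normalized counts in the 4 libraries, so no fold is given for either gene. Their partners Rpl3 (13493, 13638, 14936 and 12103 normalized counts) and Rpl10 (14504, 15140, 15594 and 13043) had SON I as the highest and SON II as the lowest library. Rps4l was not found in the table by name.

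Ribosomal protein genes have left many copies in the genome, and 13 such rows stood under a member's name, beside the row that the annotation does not hold. Among the 10 that were tested, 6 had a positive difference, with a median of 0.055. For several the coding sequence was the same as that of the parent gene, so a read from within it fits both places, and the sources used here do not give how the authors counted such reads. Rps27rt, listed as Rps27, matched all 252 coding bases of Rps27. It had 9391 and 10024 normalized counts in the GFP control, against 9770 and 7047 in SON, against 1764, 1538, 1984 and 1676 for Rps27 at its own locus. The copy thus held between 80.8% and 86.7% of the sum of both rows. Its log2 difference was -0.23 ± 0.21 and that of Rps27 was 0.15 ± 0.16, and neither sign can be assigned to 1 of the 2 genes.

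Rpl10-ps3, listed as Rpl10 (ENSMUSG00000058443, GRCm38 chr9:50344201-50344968, minus strand), matched all 642 coding bases of Rpl10. It had 1211 and 1607 normalized counts in the GFP control, against 1100 and 639 in SON, and SON II was the lowest library by a wide margin. Both SON libraries were lower than both GFP control libraries, with a log2 difference of -0.73 ± 0.31 (limma adjusted p = 0.418). It was -1.13 without SON I and -0.34 without SON II. Rpl10 at its own locus had a log2 difference of -0.06 ± 0.18. Gm10076, which holds all 75 coding bases of Rpl41, was also lower in both SON libraries, but on 17 and 23 reads in the GFP control and 5 reads in each SON library. Its log2 difference was -0.89 ± 0.44 (limma adjusted p = 0.487).

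Gm2000, listed as Rpl35, differs from Rpl35 at 1 of 369 coding bases. It had 2109 and 2342 normalized counts in the GFP control, against 2803 and 2032 in SON, with a log2 difference of 0.10 ± 0.20. The copy held 60.3% and 65.1% of the sum of both rows in the GFP control, against 58.7% and 54.7% in SON. The sum of both rows was 3497, 3599, 4772 and 3712, in which the groups still did not overlap but SON II came close to GFP control II. Gm10275 (named Rpl12) and Gm7536 (named Rpl27a) also matched their parents over the whole coding sequence, and held 39.1% to 43.8% and 28.2% to 31.3% of the respective sums. Rpl36al, listed as Rpl36a, differs from it at 39 of 318 coding bases and had 2408, 2661, 2891 and 2253, with SON I the highest and SON II the lowest library. Among the other small subunit copies, Rps2-ps10 had 393 and 492 in the GFP control, against 614 and 538 in SON, Rps12-ps3 had 290, 324, 341 and 216, and Rps26-ps1 had 514, 531, 649 and 596. Of the 4 untested rows, Gm10132 (named Rpl23a) had 5 or 6 reads in each library, and Gm9396 and Rpl27-ps3 had at most 2. The row named Rpl7a that the annotation does not hold had at most 7.13 normalized counts.

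**Figure D2:**
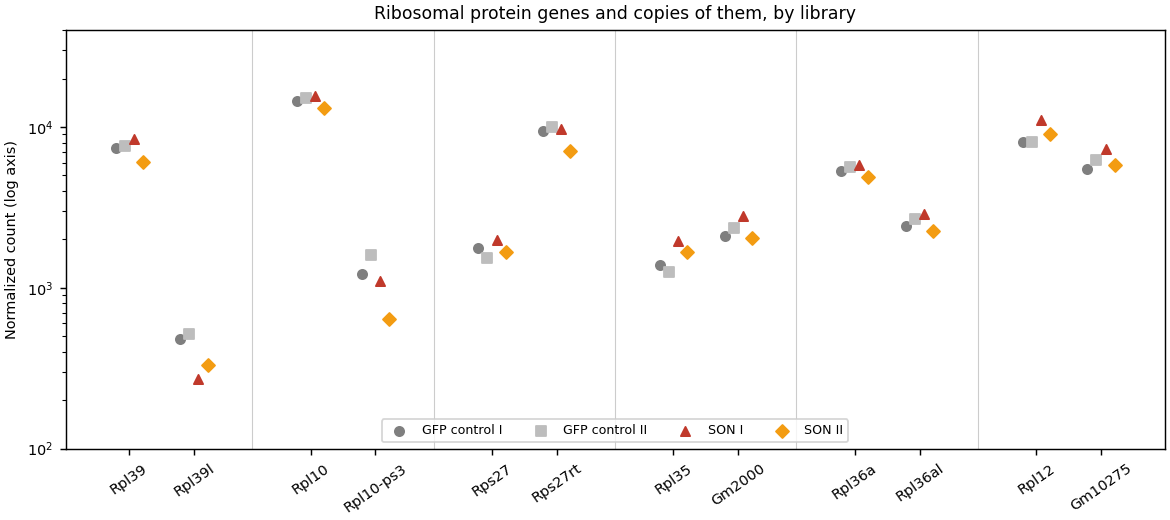
Normalized counts (log axis) of 6 ribosomal protein genes, each beside a copy, with 1 point per library. Rpl39l and Rpl10-ps3 lie lower in both SON libraries while Rpl39 and Rpl10 have SON I highest and SON II lowest, and the Rps27 copy lies above Rps27 in all 4 libraries.

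To compare levels between genes, the normalized count was divided by the length of the principal transcript in kilobases. Without the tissue-restricted copies, the median level per kilobase over 45 large subunit genes was 9532 and 9978 in the GFP control, against 10551 and 9331 in SON. Over 29 small subunit genes it was 11148, 11861, 13196 and 11492, which was above the large subunit median in each library. The order at the top was Rpl4 with a mean of 25283 per kilobase over the 4 libraries, Rpl41 with 23784 and Rps9 with 23265. The ranges of these genes over the libraries overlapped, so their order is not fixed by these data.

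A few genes fell far from the others. Rpl24 had a mean of 107 per kilobase, from 72.7 and 55.9 normalized counts in the GFP control, against 70.9 and 89.6 in SON. It shares 47.0% of its exon bases with Gm28037 on the same strand, which had 0 in all 4 libraries. The part of this overlap in the low level was not tested. Apart from Rpl39l, Rpl35 with 1663 per kilobase and Rps15a with 2037 were next. The near-identical copy of Rpl35, Gm2000, held 54.7% to 65.1% of the sum of both rows, and Rpl35 shares exon bases with Wdr38 and Arpc5l. The part of the copy or of the shared bases in the low level of Rpl35 was not tested. The principal transcript length used for Rps15a was 5130 bases, against medians of 827 for the large and 714 for the small subunit. In all, 34 of the 91 members share exon bases with another gene of the table, and the library kit does not record the strand.

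**Figure D3:**
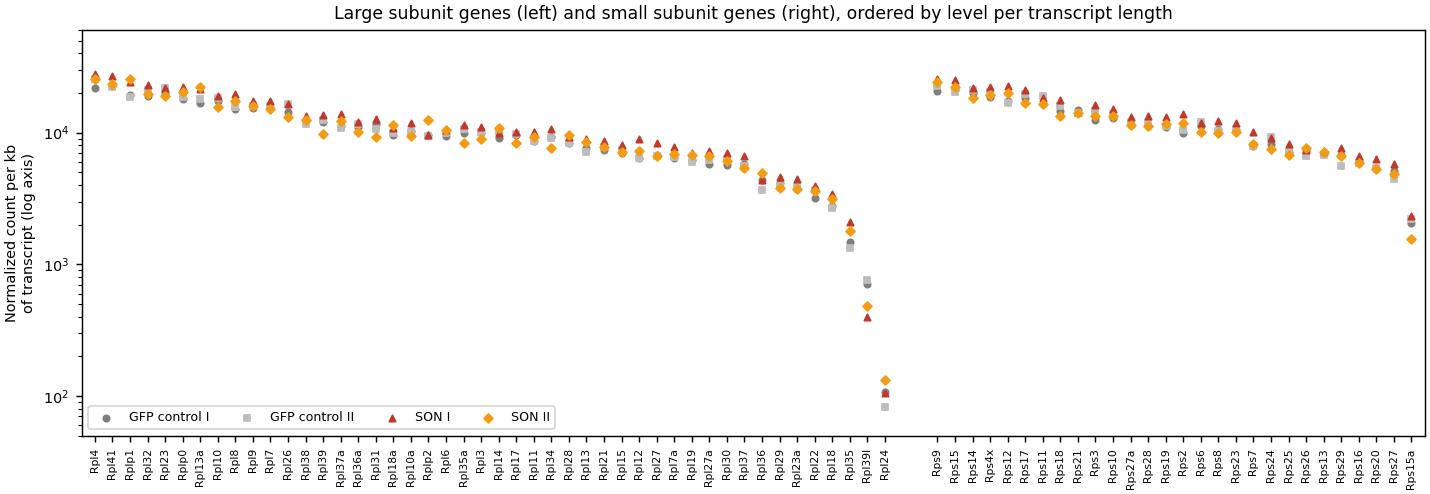
Normalized count per kilobase of principal transcript (log axis) of ribosomal protein genes at their own locus, with 1 point per library, ordered by mean within each subunit. The highest mean within each subunit is 25283 for Rpl4 and 23265 for Rps9, while Rpl39l and Rpl24 lie below 1000 in all 4 libraries.

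The start sites were read from RefSeq windows of 250 bases before to 50 after the start (GRCm38.p6), which matched 57 of the 77 genes by symbol. A pyrimidine run was counted when a C was followed by further C or T to at least 8 bases on the gene's strand, between 25 bases before and 50 after a start. It was found in 46 of the 57 genes, or 80.7%, against 24.3% of 27025 genes with a window and 2758 of the 11038 tested genes among them. Windows are shown for genes of positive difference (Rpl35, Rpl13a, Rps12 and Rplp2) and of negative difference (Rps6, Rps15a, Rpl39 and Rpl39l), with the run in capitals, all 5′ to 3′ on the gene's strand.
Rpl35: gccccgCCCTTTCCTCTTTCTCTCgaacca
Rpl13a: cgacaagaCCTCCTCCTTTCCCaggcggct
Rps12: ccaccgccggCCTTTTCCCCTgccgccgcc
Rplp2: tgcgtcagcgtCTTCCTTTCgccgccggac
Rps6: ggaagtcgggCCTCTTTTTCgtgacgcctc
Rps15a: gcccggcccaCTCTCTTTCTgccatcttcc
Rpl39: gagtcatccatCCCCCCCTaagctccgcct
Rpl39l: acacccactgcCTCTCCCTagctcccaggc
They lie at chr2:39005115-39005144 (minus strand), chr7:45128722-45128751 (minus), chr10:23787182-23787211 (minus), chr7:141447636-141447665 (plus), chr4:86857349-86857378 (minus), chr7:118116143-118116172 (minus), chrX:37085224-37085253 (minus) and chr16:10170192-10170221 (plus), in the order shown. Only windows that hold such a run were taken for display, so its presence in those shown was fixed by the choice. The median log2 difference was 0.12 for 45 tested genes with a run and 0.10 for 10 without one.

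Among fixed motifs searched on both strands of the 300 bases, CCGGAAG was in 40.4% of the 57 genes, against 9.93% of all genes and 18.6% of the tested genes. TATAAA was in 10.5%, against 15.7% and 9.09%. CTCGCGA was in 13 of the 57, or 22.8%, against 2.22% of all and 4.35% of the tested genes. The 13 were Rpl7a, Rpl10a, Rpl12, Rpl26, Rpl27a, Rpl35, Rpl37a, Rps6, Rps9, Rps15, Rps15a, Rps19 and Rps28. A motif was counted wherever it lay in the window, also where it overlapped another or a pyrimidine run. A few of the windows with CTCGCGA are shown, for genes of opposite difference, with the motif in capitals. They lie at chr2:32961649-32961678 (plus strand), chr7:24884556-24884585 (plus), chr4:86857398-86857427 (minus) and chr7:118116193-118116222 (minus) of GRCm38.p6.
Rpl12: gccagcggttCTCGCGAgagctgagctttt
Rps19: tttagccgctCTCGCGAgcactccgaaatc
Rps6: gccggctgttCTCGCGAgaacttagagcgc
Rps15a: accatgaagtCTCGCGAtagcgcttccgct
The median log2 difference was 0.088 with CCGGAAG and 0.14 without it, and 0.18 with CTCGCGA and 0.11 without it. Of the 4 genes shown, Rpl12 and Rps19 had positive differences (0.31 and 0.15) and Rps6 and Rps15a negative ones (-0.09 and -0.16). These matches describe the letters of the windows only.

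Ribosomal proteins whose names the pattern does not take were close to the members. All 5 in a list without Rpl5, which is described with Rpl11, had a positive difference, with a median of 0.17, and none was called. Rack1, a scaffold on the small subunit, had 27511 and 28605 normalized counts in the GFP control, against 35533 and 29502 in SON, and Rpsa had 19198, 21624, 27300 and 23209. Rps3a1 had 12372, 12616, 15174 and 13053. In these 3 genes both SON libraries were the higher ones and SON I was the highest. Fau, made as a fusion with a ubiquitin-like protein, had 3944, 3431, 3808 and 4220. Among duplicates of members, Rps27l, a p53 target, had 4143, 4357, 4314 and 3149, with SON II low, and Rpl22l1 had 2231, 2018, 3052 and 1506.

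The factors that work with the ribosome had small differences too. Of 6 elongation factors 5 had a positive difference, with a median of 0.23, and none was called. Eef2, which moves the ribosome along the messenger RNA, had 53123 and 52886 normalized counts in the GFP control, against 62838 and 61299 in SON, without overlap. Eef1a1, which brings transfer RNA, had 164018, 184561, 171870 and 170291, with both SON libraries between the GFP control libraries. The 27 initiation factors had a median of 0.090, with 16 positive and none called. Their most-read gene was Eif4g2, with 28870, 26809, 25644 and 22470. Over 12 other messenger RNAs that are known to begin with a pyrimidine run the median was 0.20, with 8 positive, and 5 of the 12 are elongation factors counted above. Tpt1, one of them, had 23178, 22716, 24262 and 23701.

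The genes for proteins that build the ribosome had a higher median difference than those for its own proteins. Of 29 assembly genes 25 had a positive difference, with a median of 0.26, and both SON libraries lay above both GFP control libraries for 17, or 58.6%, against 22.2% of all tested genes. No assembly gene was called by limma. At an unadjusted p under 0.05 it gave 8 that were higher in SON, where 5.99% of all genes were. The authors' deposited table called 2 of them, Rrp9 with an adjusted p of 0.0117 and Utp20 with 0.0457, where 4.07% of the genes with an adjusted p were called. Rrp9, part of a particle that processes the small subunit RNA, had 309 and 371 normalized counts in the GFP control, against 629 and 729 in SON (log2 difference 1.00 ± 0.19, limma adjusted p = 0.239). Utp20, of the same processing step, had 1633, 1859, 2858 and 2853. Ncl, the most abundant of the list, had 14296, 17181, 14998 and 17967 and overlapped between the groups. The difference between this list and the ribosomal protein genes was not tested.

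A further list was for RNA polymerase I, which transcribes the large ribosomal RNAs, and held genes of its subunits and of factors that start its transcription. Of these 8 genes 6 had a positive difference, with a median of 0.24, and none was called. The largest difference of the list was in Polr1a, the largest subunit, with 1262, 1560, 2074 and 2005 (log2 difference 0.54 ± 0.16, limma adjusted p = 0.319). Of 12 genes that control the output of ribosomal proteins, 8 had a positive difference, with a median of 0.13, and none was called. Rps6kb1, an S6 kinase, was lower in both SON libraries, with 2932 and 2166 in the GFP control, against 1839 and 1532 in SON (log2 difference -0.59 ± 0.20, limma adjusted p = 0.364). Myc, which drives ribosomal genes, had 1087, 1132, 968 and 1363, and Mtor had 1405, 1439, 1820 and 1751. Larp1, which binds pyrimidine starts, had 4494, 4616, 6473 and 4825.

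The genes for ribosomal proteins of the mitochondrion had a median on the other side of 0. The difference was positive for 33 of 76 tested genes, with a median of -0.039, and none was called. Both SON libraries lay above both GFP control libraries for 12, where 22.2% of all tested genes did, and below both for 20, where 23.7% did. Among 239 rows named as ribosomal protein pseudogenes 66 were tested, with 26 positive and a median of -0.080, and SON I was above SON II for 56 of the 66. These pseudogene rows can share reads with the genes they come from.

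**Figure D4:**
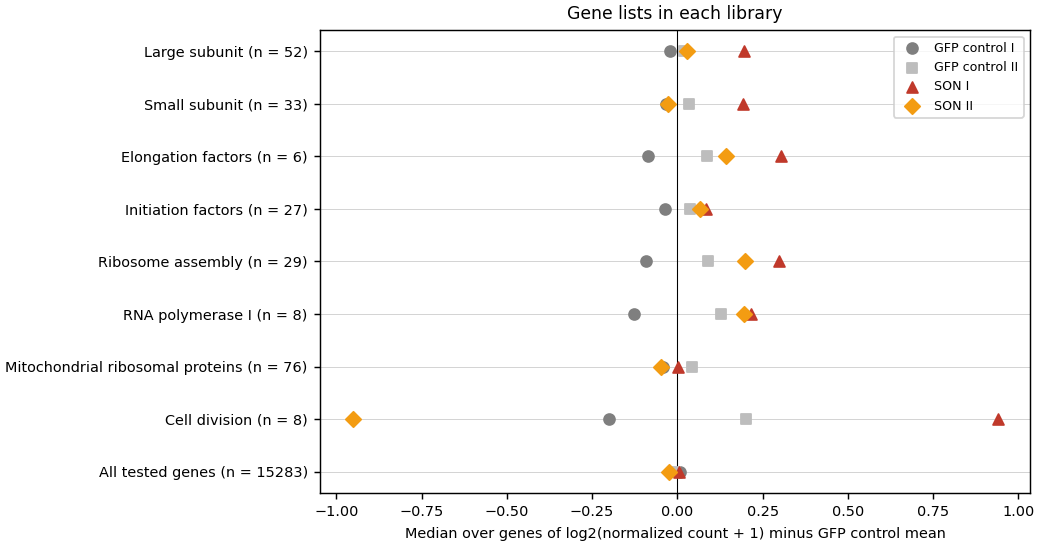
Median over each gene list of log2(normalized count + 1) minus the mean of the GFP control libraries, with 1 point per library. SON I lies to the right of both GFP control libraries for the large and small subunit lists while SON II lies near them, and the cell division list has SON I at 0.94 and SON II at -0.95.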

How the data were processed

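Messenger RNA libraries were made from 1 μg of RNA with the TruSeq mRNA kit v2, per the labels' protocols. The submitters' processing notes list the aligners STAR 2.4.0j and TopHat2 2.0.11, the counters featureCounts (Subread) and HTSeq 0.5.3p3, CASAVA 1.8.1 and DESeq2, and the genome GRCm38 (mm10). The sources used here do not give which of these made the gene table. The deposited values are a signal per gene and library: the authors divided the reads of each library by 1 size factor, since 100% of the values were whole multiples of 1 step per library within 0.01 reads. Per the file headers the deposited table also holds the authors' DESeq2 columns: a mean signal, a log2 fold change, a Wald statistic (a score) and a p-value with its adjusted form. The deposited table of repeats was not used.

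Dividing by the step gave whole reads. Genes passing filterByExpr of edgeR 4.0.16 (15283) were tested two-sided with limma 3.58.1 (R 4.3.3), allowing a mean trend, on log2(value + 1), and p was adjusted by Benjamini-Hochberg over all of them. Because the labels do not say that libraries are separate cultures, the p-values cover only spread between libraries, which may be technical. Gene types, coordinates and coding sequences came from GENCODE M21 (90 of 91 members matched), start windows from RefSeq. Level per kilobase used the median length of the transcripts marked principal in the annotation. Alternatives were pseudocounts of 0.1 and 10, no filter, at least 1 CPM in 2 libraries, each library left out, a replicate block, and edgeR (TMM, RLE and upper-quartile factors), DESeq2 1.42.0 and limma voom on the recovered reads. The fitting was tested on simulated data, in which all changes made were larger than any difference of a tested member. That check therefore does not cover differences of the size reported here.

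Members named in full are the 6 largest differences in each direction, the 5 large and 3 small subunit genes of highest mean level, the stalk genes, Rpl5, Rpl11, Rps6, Rps19, Rps27a, the tissue-restricted copies with their partners, and members with under 20 reads in all. Others were named after their values had been seen. The members and lists were chosen with earlier results of these data known. Some genes of these lists are not reported here by name.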

Additional observations from a re-analysis of the deposited data

How the results depend on the processing

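No ribosomal protein gene was called under limma or under any of the 14 alternatives, DESeq2 and edgeR included. Over all genes limma called 5 higher and 3 lower, DESeq2 217 and 374, limma voom 3 and 1, limma without GFP control II 9 and 28, and without any other library 0. The lone library of a group is then assumed to vary like the others. The median log2 difference ran from 0.029 to 0.19 for the large and from -0.027 to 0.19 for the small subunit when 1 library was left out. The difference in large minus small subunit level ran from -0.045 to 0.017 when 1 library was left out. It was 0.019 over the own-locus rows and 0.024 over rows with a mean level of at least 1000 against -0.014 over all tested members. The count of members with the SON libraries above the GFP control libraries ran from 35 to 72 when 1 library was left out. That below ran from 3 to 34. Leaving out a library eases the condition, so these counts could not fall, and the shares of all tested genes were not counted. The share of reads was 0.089 to 0.53 percentage points higher in SON when 1 library was left out. Of 350 values of 27 named members, 16 changed sign, and none moved across the threshold. One of these used all libraries: Rpl3 was 0.0024 in edgeR with RLE factors. The rest came from leaving out 1 library, with log2 differences that ran for Rpl10 from -0.18 to 0.074, Rps15a from -0.45 to 0.12, Rps27a from -0.030 to 0.17, Rps20 from -0.00037 to 0.24, Rps6 from -0.20 to 0.020, Rps3 from -0.033 to 0.25, Rps4x from -0.020 to 0.19, Rpl7 from -0.070 to 0.13, Rps27rt from -0.46 to 0.00999, Rpl3 from -0.16 to 0.14, Rps12-ps3 from -0.50 to 0.15, Rpl23 from -0.14 to 0.055 and Rpl39 from -0.32 to 0.16. Without a change of sign, Rplp2 ran from 0.011 to 0.39, Rpl4 from 0.062 to 0.29, Rps2 from 0.21 to 0.44 and Rps2-ps10 from 0.22 to 0.54. The cause was not tested. The own-locus rows and the alternatives to the counts of libraries above or below (30 to 33 above and 3 to 4 below on the TMM, RLE and upper-quartile scales) were chosen after seeing the data.

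The numerals I and II are not said to pair libraries. The log2 differences I minus II of the groups correlated across genes at r = 0.22 (genes are not independent replicates). With a replicate block, limma called 4 genes higher and 7 lower over all genes and 0 ribosomal protein genes, and the medians and the large minus small difference (-0.014) were the same.

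With 2 libraries a group and 14680865 to 37097571 reads, depth limits the rows at the floor, and the number of libraries limits what the test can call. Rows with identical coding sequence cannot be separated by reads from within it.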
